A study of Mus musculus with 9 samples.

Results

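Beside NLRP3, macrophages hold other sensors that can start an inflammasome, and other proteases and pore proteins that act in the same kinds of cell death. The genes described here are 8 of the 18193 genes measured: Aim2, Naip2, Naip5, Naip6, Mefv, Casp4, Casp8 and Gsdme. They were chosen by name from this textbook grouping and not by a measured value, though with earlier results of these data known. The cells were macrophages grown from the bone marrow of C57BL6 mice aged 6 to 12 weeks, first in L929 conditioned medium and used on day 6 in vitro, and their RNA was measured on Affymetrix Mouse Genome arrays. All 9 cultures, the controls included, had been primed with 33 ng/mL lipopolysaccharide (LPS, a bacterial cell wall component) for 3 h. Sterile saline, TMT OH (trimethyltin hydroxide, 1.25 µM) or TET Br (triethyltin bromide, 10 µM) was then added for 6 h, with 3 biological replicates per group. The organotins TMT and TET differ in their alkyl groups and in dose, so a difference between them cannot be told apart from a difference in dose. No group without LPS was analysed here, so the priming itself was not tested.

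An inflammasome is a protein complex in which a sensor, often through the adaptor ASC, brings caspase-1 together so that it becomes active, matures interleukin-1β and cuts gasdermin D into pores. AIM2 senses double-stranded DNA in the cytosol. NAIP proteins bind bacterial flagellin (NAIP5 and NAIP6) or the rod protein of type III secretion systems (NAIP2) and pass the signal to NLRC4. Pyrin, encoded by Mefv, responds to loss of RhoA activity. Caspase-11, encoded by Casp4 in the mouse, binds cytosolic LPS and cuts gasdermin D itself, caspase-8 starts apoptosis and restrains necroptosis, and gasdermin E, encoded by Gsdme, forms pores once it has been cleaved. Many of these mRNAs are themselves raised by LPS or interferons.

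The gene positions are those of the RefSeq annotation of GRCm38.p6. Naip2 (chr13:100144063-100202122), Naip5 (chr13:100211735-100250930) and Naip6 (chr13:100281121-100316616) stand in 1 cluster on the minus strand of chromosome 13, together with Naip1 and Naip pseudogenes. Aim2 lies at chr1:173349547-173466040, Casp8 at chr1:58795233-58847503, Gsdme at chr6:50207401-50263857, Casp4 at chr9:5308849-5336791 and Mefv at chr16:3706974-3718211. The start regions of the Naip genes, 250 bases before to 50 after an annotated start (for Naip5 one inside the annotated gene), are shown because the 3 genes did not respond alike. All 8 genes had a promoter in the RefSeq table. The capitals mark the longest locally aligned stretch of Naip2 and Naip5, in which 123 of 134 aligned bases (91.8%) were identical. Naip6 had no such stretch with either of them (its best local matches were 8 bases with Naip2 and 10 of 11 bases with Naip5).
Naip2 (chr13:100202073-100202372, minus strand): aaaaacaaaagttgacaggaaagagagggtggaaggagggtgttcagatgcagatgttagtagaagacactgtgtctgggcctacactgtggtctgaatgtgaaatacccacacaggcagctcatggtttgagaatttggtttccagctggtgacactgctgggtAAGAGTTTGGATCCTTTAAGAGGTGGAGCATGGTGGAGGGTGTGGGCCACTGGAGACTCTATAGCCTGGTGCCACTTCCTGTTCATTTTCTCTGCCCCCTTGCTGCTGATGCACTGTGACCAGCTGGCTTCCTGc
Naip5 (chr13:100247287-100247586, minus strand): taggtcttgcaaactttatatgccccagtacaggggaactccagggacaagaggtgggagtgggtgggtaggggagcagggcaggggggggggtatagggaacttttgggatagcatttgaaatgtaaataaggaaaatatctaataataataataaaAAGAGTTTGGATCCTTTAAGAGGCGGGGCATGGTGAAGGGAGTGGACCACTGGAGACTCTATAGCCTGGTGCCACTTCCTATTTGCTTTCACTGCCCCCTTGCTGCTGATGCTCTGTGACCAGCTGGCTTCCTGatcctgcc
Naip6 (chr13:100316567-100316866, minus strand): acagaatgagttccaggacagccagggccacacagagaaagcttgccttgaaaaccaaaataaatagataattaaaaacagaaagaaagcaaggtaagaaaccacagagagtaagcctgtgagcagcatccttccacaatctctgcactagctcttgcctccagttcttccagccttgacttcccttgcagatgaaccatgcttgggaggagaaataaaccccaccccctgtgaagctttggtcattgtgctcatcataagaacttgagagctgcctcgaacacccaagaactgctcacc

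The 9 start regions of the 8 genes (Casp4 had 2 annotated starts) were also searched on both strands for 7 motifs. The NF-kB consensus, which overlapped with itself in Casp4, was found in Naip5 and in both windows of Casp4, which overlap and hold the same sites, against 8.46% of all 32851 RefSeq promoters of this length. The other motifs were the ISRE core of interferon-stimulated genes (3.44% of all promoters), the ETS-IRF composite (2.72%), the STAT site TTCNNNGAA (8.3%), the heat shock core GAANNTTC (7.86%), the ATF4 composite core TGATGNAA (3.97%) and the E-box CACGTG (7.15%). None of these 6 had a match in the 9 windows, which says only that these letters are not there. The start region of Casp4 is shown with its NF-kB matches in capitals, since it held 4 matches at 2 places.
Casp4 (chr9:5308599-5308898, plus strand): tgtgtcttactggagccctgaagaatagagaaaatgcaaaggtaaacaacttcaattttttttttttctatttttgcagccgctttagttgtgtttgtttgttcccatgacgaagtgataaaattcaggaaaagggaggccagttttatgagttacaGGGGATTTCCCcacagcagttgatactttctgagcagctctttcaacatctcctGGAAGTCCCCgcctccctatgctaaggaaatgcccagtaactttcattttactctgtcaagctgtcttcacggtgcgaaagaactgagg

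Values are log2 signals per probe set, so a difference of 1 is a 2-fold change, and errors of a group are SD with n = 3. Each gene was read by its brightest probe set, and differences were tested with limma over all genes, passing at an adjusted p under 0.05. Signals of different probe sets were not compared with each other, except to tell dim from bright genes. Under TMT, Naip2, Naip5 and Mefv rose and Aim2 and Gsdme fell. Under TET, Casp4 and Naip2 rose while Mefv, Naip5, Naip6 and Gsdme fell. Mefv and Naip5 therefore rose with one organotin and fell with the other, in comparisons that share the saline arrays. Thus 5 of the 8 genes passed under TMT (3 rose, 2 fell), against 27.8% of all genes (14.3% rose, 13.4% fell). Under TET 6 passed (2 rose, 4 fell), against 50.8% of all genes (27.4% rose, 23.4% fell). With at least a 1.5-fold change required, 4 passed under TET (0 rose, 4 fell), since Naip2 (1.32-fold) and Casp4 (1.44-fold) rose by less. These counts read Gsdme by its brightest probe set alone. Its other probe set rose under TET (1.45) and did not pass under TMT (−0.20), so the direction of Gsdme under TET is not settled. The 3 arrays of a treated group lay wholly outside the saline range in 7 of 8 genes under TMT, against 44.7% of all genes, and in 7 of 8 under TET, against 58.7%. The median size of the log2 difference, whatever its sign, was 0.89 over the 8 genes and 0.18 over all genes under TMT, and 0.56 and 0.34 under TET. In every group the mean of each of the 8 genes stood above the median gene (lowest was Gsdme under TMT, at percentile 53.1). The values over all genes also include dimmer genes, so these sets differ in brightness. With 3 arrays against 3, an exact permutation test cannot give a two-sided p below 0.1, which every gene whose arrays did not overlap reached. The labels call the replicates biological without naming their mice, so p-values measure only the spread between these cultures.

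**Figure D1:**
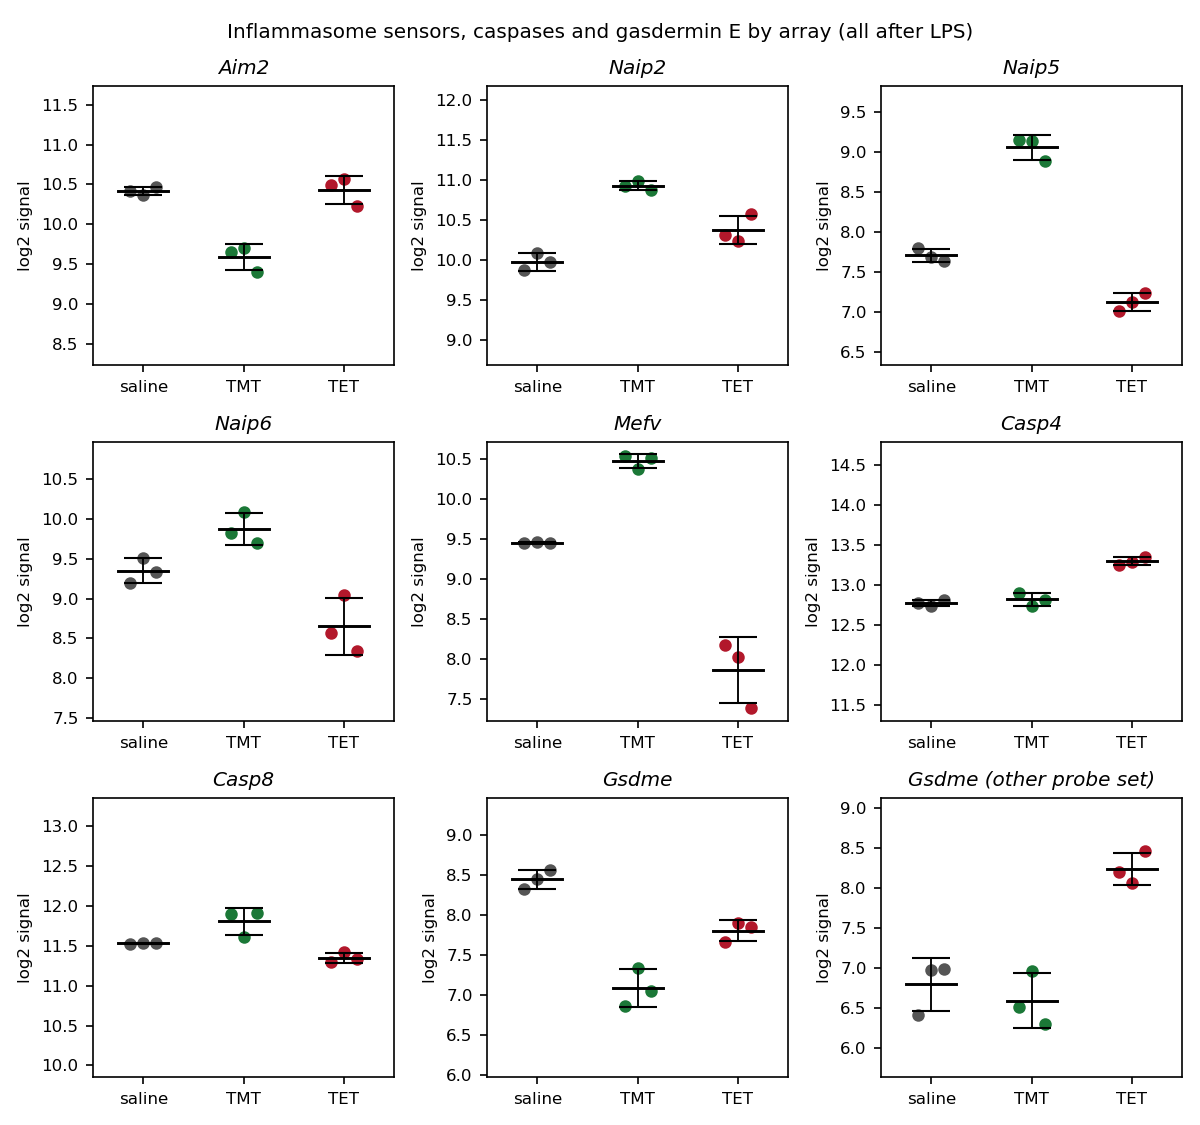
Log2 signal of the 8 genes in each array (points), with group means (long bars) and SD (short bars, n = 3), for saline, TMT and TET after LPS priming, and in the last panel the other probe set of Gsdme. All panels span the same number of log2 units, and Mefv shows the widest gap, with TMT arrays above 10.3 and TET arrays below 8.2.

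Pairs of arrays of 1 group correlated at 0.997 to 0.998 in saline, 0.994 to 0.998 under TMT and 0.990 to 0.992 under TET across genes, which are not independent replicates. Within groups, the SD of the median gene was 0.091, 0.118 and 0.171 in that order. The signal range was narrower on the TET arrays (interquartile range 3.45 to 3.55) than on the others (3.78 to 3.88). After repeated quantile normalization, which gives every array 1 distribution, each of the 8 genes stayed on its side of the threshold under TET, with Naip6 (−0.50, adjusted p = 0.041) nearest to it among the 6 that passed. Under TMT, Naip6 and Casp8 newly passed in that setting. The median log2 difference over all genes was 0.09 for TET against saline and 0.11 for TET against TMT. Macrophage markers were bright in every group, with a mean log2 signal over 9 measured markers of 11.86 (saline), 11.88 (TMT) and 11.82 (TET). The summed linear signal of the macrophage markers ran from 78548 to 81478 in saline, from 71795 to 84981 under TMT and from 64245 to 71342 under TET. Of 7 measured neutrophil markers 4 fell under TMT and 4 under TET, against 13.4% and 23.4% of all genes. The summed linear signal of the neutrophil markers ran from 3416 to 4033 in saline. It ran from 2451 to 3447 under TMT and from 1950 to 2157 under TET. Of the 9 macrophage markers 2 rose and 2 fell under TMT, where 27.8% of all genes changed. Under TET, where 50.8% changed, 2 rose and 4 fell. Markers of other cell types rose under TET in 3 of 4 for T cells, 3 of 4 for B cells and 2 of 3 for erythroid cells. They also rose in 2 of 5 for dendritic cells and 3 of 5 for fibroblasts and stroma. For NK cells 0 of 3 rose, and for mast cells and basophils 0 of 4. Of all genes 27.4% rose under TET. Mean log2 signals in saline were low for T cells (5.09), B cells (5.36) and erythroid cells (4.64), against a median of 6.82 over genes in all arrays. Under TMT 1 dendritic cell marker and 1 stromal marker rose and 1 T cell marker fell. The part of these cells in the results was not tested. In such bulk RNA, fewer cells of a type and less RNA per cell cannot be told apart.

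Aim2, the sensor of cytosolic DNA, fell under TMT and was not detectably changed under TET. Its probe set read 10.42, 10.36 and 10.46 in the saline arrays, 9.66, 9.70 and 9.40 in the TMT arrays and 10.49, 10.56 and 10.23 in the TET arrays. Every TMT array lay below every saline and TET array, while saline and TET overlapped. Aim2 thus fell 1.77-fold under TMT (log2 difference −0.83, SE 0.12, limma adjusted p = 3.6e-04). TET against saline gave 0.01 (95% interval −0.24 to 0.27, adjusted p = 0.93), an interval that leaves room for changes of up to about 1.2-fold in either direction. The sign of that small difference turned when single arrays were left out or arrays were centred on their medians. TET against TMT differed by 0.84 (adjusted p = 1.7e-04).

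The Naip genes share most of their sequence, and probes of 1 member may also bind mRNA of another. This part of their values was not tested. Naip2 was read by a probe set whose name marks probes shared by several transcripts of a gene. It read 9.87, 10.09 and 9.97 in saline, 10.93, 10.99 and 10.88 under TMT and 10.31, 10.24 and 10.58 under TET. The 3 groups did not overlap, with TMT highest and saline lowest. Naip2 rose 1.94-fold under TMT (0.95, SE 0.11, adjusted p = 8.3e-05) and 1.32-fold under TET (0.40, SE 0.11, adjusted p = 0.011).

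Naip5 had the same order for TMT but not for TET. Its probe set, of the same kind, read 7.80, 7.69 and 7.64 in saline, 9.15, 9.15 and 8.89 under TMT and 7.01, 7.12 and 7.23 under TET. TMT arrays lay above and TET arrays below the saline range. Naip5 rose 2.55-fold under TMT (1.35, 95% interval 1.12 to 1.58, adjusted p = 6.9e-06) and fell 1.5-fold under TET (−0.59, 95% interval −0.82 to −0.36, adjusted p = 0.0010). TET against TMT gave −1.94 for Naip5 (adjusted p = 3.0e-07), a difference exceeded in size by 3.39% of all genes. Naip2 and Naip5, whose start regions share the stretch printed above, thus passed in opposite directions under TET.

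Naip6 followed Naip5 in the direction of its means, with more spread. It read 9.20, 9.51 and 9.33 in saline, 9.83, 10.08 and 9.70 under TMT and 8.56, 9.05 and 8.34 under TET. The groups did not overlap. Under TMT the difference of 0.52 (SE 0.18) missed the threshold (adjusted p = 0.052, above saline in 3 of 3 arrays). It passed in 9 of 19 alternative settings, among them without TET replicate 2 or TET replicate 3, and its adjusted p ran from 0.0016 to 0.17. Under TET Naip6 fell 1.62-fold (−0.70, SE 0.18, adjusted p = 0.0081). NAIP partner Nlrc4 and the neighbour Naip1 were not analysed here. Of the 6 measured neighbours of the Naip or caspase-1 cluster, 0 rose and 1 fell under TMT (Casp12), where 27.8% of all genes changed. With TET, where 50.8% changed, 0 rose and 2 fell. The latter were Bdp1, encoding a subunit of the RNA polymerase III factor TFIIIB (−1.04, SE 0.09), and Serf1 (−0.78, SE 0.18), and the call of Serf1 was not kept with the mean over its probe sets (−0.23, adjusted p = 0.073). In this list the count under TMT was 2 without TET replicate 1 or TET replicate 2, and between 1 and 3 over all alternatives.

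Mefv, which encodes pyrin, differed most between the organotins. It read 9.45, 9.46 and 9.45 in saline, 10.54, 10.38 and 10.52 under TMT and 8.17, 8.02 and 7.39 under TET. The TMT arrays stood above and the TET arrays below all saline arrays, and TET replicate 3 was the lowest. Mefv rose 2.04-fold under TMT (1.03, SE 0.17, adjusted p = 0.0012) and fell 3.02-fold under TET (−1.59, SE 0.17, adjusted p = 3.6e-05). Without TET replicate 3 the fall was −1.36. TET against TMT gave −2.62 (SE 0.17, adjusted p = 1.1e-06), and 1.2% of all genes had a larger difference. Pyrin is also made by neutrophils, whose markers moved as given above, and the part of these cells in the change of Mefv was not tested.

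Of 10 other genes of the pyrin pathway, 1 rose and 2 fell under TMT, where 27.8% of all genes changed. Under TET, where 50.8% changed, 1 rose and 4 fell. The count under TMT was 6 with trended robust moderation and 5 with array weights. Pstpip1, encoding an adaptor that binds pyrin, read 10.02, 9.92 and 9.99 in saline, 10.98, 10.69 and 11.20 under TMT and 9.86, 9.89 and 9.88 under TET. It rose 1.97-fold under TMT (0.98, SE 0.12, adjusted p = 1.4e-04), and TET gave −0.10 (adjusted p = 0.50). Rhob, encoding a relative of RhoA, fell 6.45-fold under TMT (−2.69, SE 0.09, adjusted p = 7.8e-08) and 1.46-fold under TET (−0.55, SE 0.09). Pkn2, encoding a protein kinase, fell 1.27-fold under TMT, a call lost without saline replicate 1, saline replicate 3 or TMT replicate 3 (highest adjusted p 0.086). It rose 1.46-fold under TET, but not with the mean over its probe sets (0.03, adjusted p = 0.77). Ywhag, encoding a 14-3-3 protein of the kind that holds pyrin inactive, fell 1.82-fold under TET (−0.86, SE 0.13).

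Casp4 rose under TET and not detectably under TMT. The probe set read 12.78, 12.73 and 12.81 in saline, 12.90, 12.74 and 12.82 under TMT and 13.26, 13.29 and 13.35 under TET. Every TET array was above every other array, and TMT overlapped saline. The rise under TET was 1.44-fold (0.53, SE 0.08, adjusted p = 4.4e-04). TMT against saline gave 0.05 (95% interval −0.13 to 0.23, adjusted p = 0.76). TET against TMT gave 0.48 (SE 0.08, adjusted p = 7.8e-04).

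Some guanylate-binding proteins and immunity-related GTPases coat bacteria in the cytosol and expose their LPS and DNA to caspase-11 and AIM2. This does not hold for every gene of the list, and what each of them did here was not tested. Of 10 measured, 2 rose and 3 fell under TMT (27.8% of all genes changed), and 1 rose and 3 fell under TET (50.8%). Gbp6 rose under both, 1.94-fold with TMT (0.96, SE 0.08, adjusted p = 1.5e-05) and 2.17-fold with TET (1.12, SE 0.08, adjusted p = 2.9e-06). Irgm2 fell under both, 1.44-fold and 1.82-fold. Irgm1 fell 1.48-fold under TMT, and Igtp fell 1.25-fold under TET. The count of changed genes under TMT was 3 without saline replicate 2, saline replicate 3 or TMT replicate 3, and 8 with array weights.

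Caspase-8 itself moved little. Casp8 read 11.52, 11.53 and 11.53 in saline, 11.90, 11.61 and 11.91 under TMT and 11.29, 11.42 and 11.33 under TET. The groups did not overlap, though TMT replicate 2 stood close to saline. Neither treatment passed against saline: TMT gave 0.27 (SE 0.10, 95% interval 0.05 to 0.49, adjusted p = 0.070) and TET gave −0.18 (SE 0.10, 95% interval −0.40 to 0.04, adjusted p = 0.15). Without TMT replicate 2 the rise under TMT was 0.37 and passed, and over its alternatives the adjusted p ran from 3.2e-04 to 0.23. TET against TMT passed (−0.45, SE 0.10, adjusted p = 0.0034). Of the 3 deposited saline values of Casp8, 2 were identical to all digits, as were 2 of the 3 of Mefv, so their saline SD (0.0059 and 0.0065) rests on a pair of distinct values.

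Of 23 measured genes of caspase-8 complexes, apoptosis and necroptosis, 7 rose and 8 fell under TMT, where 27.8% of all genes changed. With TET 6 rose and 10 fell, where 50.8% of all genes changed. Fadd, the adaptor that joins caspase-8 to death receptors, rose 1.53-fold under TMT (0.61, SE 0.09, adjusted p = 6.3e-04) and 1.97-fold under TET (0.98, SE 0.09, adjusted p = 1.5e-05), or 1.84 on the log2 scale with the mean over its probe sets. Cflar, encoding the caspase-8 modulator c-FLIP, fell 1.41-fold and 1.51-fold (adjusted p = 0.0023 and 3.9e-04). The necroptosis genes Ripk3 and Mlkl rose under TMT by 1.81-fold and 1.54-fold. Under TET Mlkl rose 1.53-fold, and Ripk3 rose 1.34-fold (adjusted p = 0.030), a call lost without any 1 of the 3 saline arrays, without TET replicate 1 or TET replicate 3 and with centred arrays (highest adjusted p 0.096). Ripk1 was not analysed here.

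Other caspases of this list differed between the organotins. Casp9, the initiator caspase of the mitochondrial pathway, read 7.44, 7.47 and 7.37 in saline, 9.51, 9.71 and 9.98 under TMT and 7.60, 7.58 and 8.0 under TET. The TMT arrays stood far above all others, and the rise was 4.95-fold (2.31, SE 0.14, adjusted p = 1.6e-06), or 0.79 on the log2 scale with the mean over its probe sets, which also passed. TET against TMT gave −2.0 for Casp9 (SE 0.14, adjusted p = 1.9e-06). Casp12, a neighbour of Casp4 and Casp1, read 7.87, 8.11 and 7.95 in saline, 6.32, 6.21 and 5.82 under TMT and 6.94, 7.73 and 7.90 under TET. It fell 3.62-fold under TMT (−1.86, SE 0.23, adjusted p = 1.5e-04), and its 3 TET arrays were spread (−0.45 against saline, adjusted p = 0.12). TET against TMT gave 1.4 for Casp12 (SE 0.23, adjusted p = 5.4e-04). Birc2 and Birc3, encoding the ubiquitin ligases cIAP1 and cIAP2 that keep caspase-8 from forming death complexes, fell 5.18-fold and 2.51-fold under TET (adjusted p = 5.6e-07 and 2.8e-06). The log2 difference of Birc3 under TET was −1.33 by its brightest probe set, −2.18 with the mean over its probe sets and −3.04 without probe sets that may bind several transcripts. Under TMT both also fell, 2.16-fold and 1.42-fold. Tnfaip3, encoding the NF-kB inhibitor A20, fell 1.79-fold under TMT and 1.91-fold under TET. Ticam1, encoding the adaptor TRIF of the LPS receptor, rose 1.3-fold under TMT and 3.2-fold under TET (0.38 and 1.68, SE 0.10 each).

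Gsdme was the gene whose result depended on the probe set. The brighter probe set, used for the counts, read 8.33, 8.44 and 8.56 in saline, 6.86, 7.34 and 7.05 under TMT and 7.66, 7.90 and 7.85 under TET. Both treated groups lay below saline, with TMT lowest. By this probe set Gsdme fell 2.57-fold under TMT (−1.36, SE 0.13, adjusted p = 2.7e-05) and 1.56-fold under TET (−0.64, SE 0.13, adjusted p = 0.0023).

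The other Gsdme probe set read 6.42, 6.98 and 7.0 in saline, 6.51, 6.97 and 6.30 under TMT and 8.20, 8.06 and 8.47 under TET. Here TET stood above both other groups, and TMT overlapped saline. Tested among all 45037 probe sets, it gave −0.20 for TMT (SE 0.21, limma adjusted p = 0.59) and a 2.72-fold rise for TET (1.45, SE 0.21, limma adjusted p = 2.9e-04). The mean of both probe sets of Gsdme fell by 0.78 under TMT and rose by 0.40 under TET (adjusted p = 0.0021 and 0.040). TET was above TMT in both probe sets (0.72 and 1.65). The direction of Gsdme under TET is therefore not settled by these arrays, and which transcripts each probe set reads was not tested. The other 7 genes had 1 probe set each that named them alone.

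**Figure D2:**
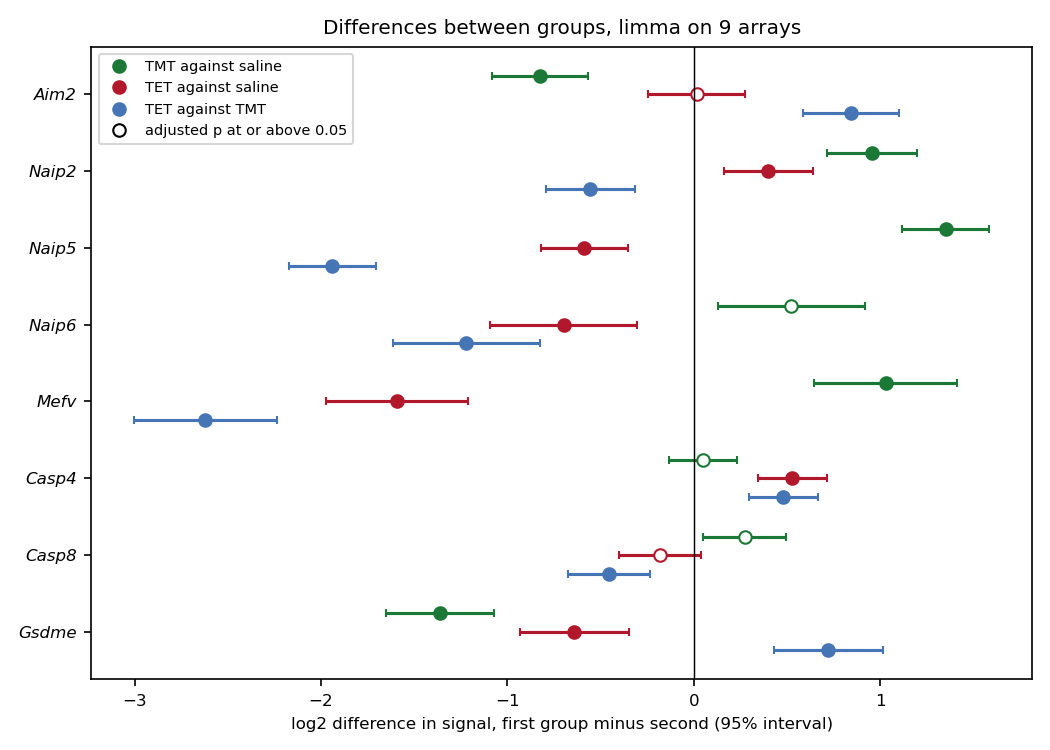
Log2 differences between groups with 95% intervals from limma for the 8 genes (brightest probe set), with filled points at an adjusted p under 0.05. Naip5, Naip6, Mefv and Casp8 lie right of 0 for TMT and left of 0 for TET (Naip6 for TMT and Casp8 for both with open points), and every point of TET against TMT is filled.

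Set directly against each other as given, TET and TMT differed in all 8 genes (3 higher and 5 lower under TET), against 51.8% of all genes (28.1% higher, 23.7% lower). The arrays of the 2 groups did not overlap in any of the 8, against 57% of all genes. Aim2, Casp4 and Gsdme were higher under TET, and Naip2, Naip5, Naip6, Mefv and Casp8 were lower. With at least a 1.5-fold change required, 5 of the 8 remained. This contrast shares its arrays with both comparisons against saline, so it is not a separate piece of evidence. Among all genes, 3.46% rose under TMT and fell under TET, the pattern of Naip5 and Mefv.

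**Figure D3:**
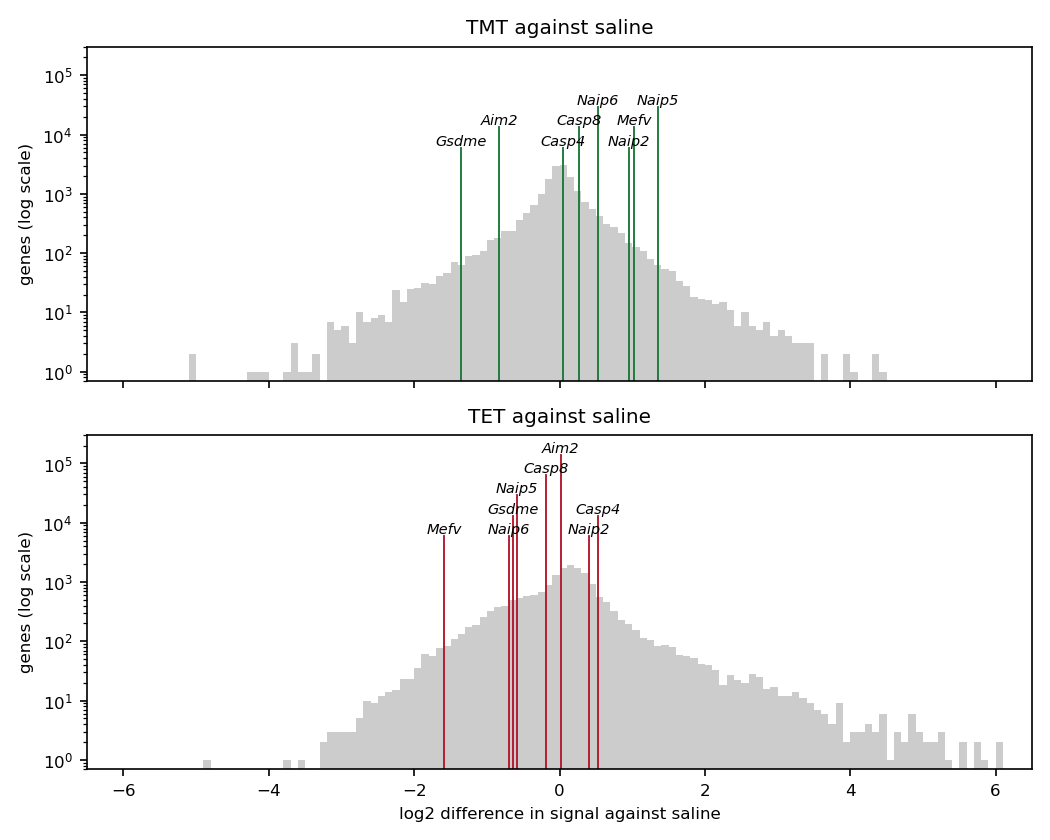
Number of genes (log scale) by log2 difference against saline for TMT (top) and TET (bottom), in grey, with vertical lines at the 8 genes (brightest probe set). Under TMT, Gsdme at −1.36 and Naip5 at 1.35 lie farthest out, and under TET Mefv at −1.59 does.

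Likeness of pattern was measured as the root mean square difference between 2 genes over the 9 arrays, in log2 units, after subtracting the saline mean of each gene. The search covered genes whose mean signal reached the median over genes. Bnip3, encoding a mitophagy receptor, was nearest to Naip5 (0.15 log2 units), followed by Stoml1 (0.15). Rmnd5b (0.20) and Rabif (0.21) were nearest to Mefv. Phip (0.10) and 2500002B13Rik (0.11) came nearest to Aim2, and Scap (0.11) and Cd44 (0.12) to Gsdme. For Naip2 they were Chpt1 (0.08) and Cfl2 (0.09), and for Naip6 Rpap1 and Ccdc82 (both 0.12). Casp4 was nearest to Shc2 and Nsrp1 (both 0.04), and Casp8 to Flii (0.05) and Ncstn (0.06). Among the 8 genes themselves the closest pairs were Naip6 with Casp8 (0.41) and Casp4 with Casp8 (0.44). None of the 8 was among the nearest genes of another: between 443 (Mefv) and 3814 (Casp8) genes came nearer than the closest of the other 7. Genes that change little come near each other by this measure even where their directions differ. Casp4 and Casp8 did so, with TET against TMT at 0.48 and −0.45.

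The genes downstream of these sensors and other inflammasome genes changed in both directions. Of 14 measured inflammasome and pyroptosis genes besides the 8, 3 rose and 2 fell under TMT, where 27.8% of all genes changed. Under TET 4 rose and 6 fell, where 50.8% of all genes changed. The count under TMT was 3 without TMT replicate 3 and 10 with array weights, and under TET it was 6 without any 1 of the 3 saline arrays. Pycard, encoding the ASC adaptor that AIM2 and pyrin need, read 12.32, 12.30 and 12.30 in saline and 11.25, 11.34 and 11.42 under TET. It fell 1.96-fold under TET (−0.97, SE 0.08, adjusted p = 8.5e-06). Nlrp3 fell 1.88-fold under TET (−0.91, SE 0.10) and 1.31-fold under TMT (−0.39, adjusted p = 0.013), where the call was lost without TMT replicate 3 (adjusted p = 0.052). The gasdermin D gene Gsdmd fell 1.45-fold under TET (−0.53, SE 0.18, adjusted p = 0.034). The Gsdmd call was lost without any 1 saline array, without TET replicate 1 and after repeated quantile normalization (highest adjusted p 0.11). Il18, encoding the other cytokine that caspase-1 matures, rose 1.35-fold under TMT and 1.2-fold under TET (0.43 and 0.26, SE 0.08 each). Txnip, encoding a thioredoxin-binding protein linked to NLRP3, rose 1.44-fold and 1.28-fold. Nlrp6, from another sensor gene, fell under TMT (−0.63, SE 0.13), between saline and TMT means of 5.05 and 4.43 that lie near or among the dimmest 20% of genes (log2 signal under 4.82), so the size of this fall is a lower limit too. Casp1 gave 0.16 under TMT and 0.07 under TET (SE 0.09 each, adjusted p = 0.26 and 0.53), and the sign under TET turned with centred arrays. P2rx7, encoding the ATP-gated channel that triggers NLRP3, read 8.98, 8.86 and 8.94 in saline, 9.56, 9.18 and 9.73 under TMT and 11.77, 12.00 and 12.33 under TET, a rise of 1.48-fold under TMT (adjusted p = 0.028) and 8.61-fold under TET (3.11, SE 0.17, adjusted p = 2.7e-07), or 4.30 on the log2 scale with the mean over its probe sets.

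Among 8 measured genes of the family of Aim2 and of DNA sensing, 0 rose and 5 fell under TMT. With TET 3 rose and 1 fell. Of all genes, 27.8% changed under TMT and 50.8% under TET. Ifi203, a member of the same PYHIN family, fell 2.25-fold under TMT (−1.17, SE 0.15) and 3.88-fold under TET (−1.96, SE 0.15). Cgas, encoding the DNA sensor that makes cyclic GMP-AMP, fell 1.68-fold under TMT (−0.75, SE 0.14, adjusted p = 0.0019). Ifi207 fell 1.28-fold under TMT and rose 1.18-fold under TET (−0.36 and 0.24, adjusted p = 0.0062 and 0.027). Zbp1, encoding a sensor of Z-form nucleic acids, rose 1.34-fold under TET (0.43, SE 0.11). Ifi202b, whose product binds DNA without an ASC-binding domain, read 6.00, 6.18 and 6.06 in saline, 5.30, 5.28 and 6.00 under TMT and 11.03, 10.78 and 10.92 under TET. Its probe set may bind related transcripts, and it fell 1.47-fold under TMT (adjusted p = 0.039) and rose 28.4-fold under TET (4.83, SE 0.18, adjusted p = 2.3e-08).

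Among 13 measured interferon and NF-kB factors, 3 rose and 7 fell under TMT, and 2 rose and 8 fell under TET. Of all genes, 27.8% changed under TMT and 50.8% under TET. Ifnb1, encoding interferon-β, read 8.14, 7.91 and 7.68 in saline, 4.12, 4.76 and 4.05 under TMT and 6.20, 6.32 and 6.24 under TET. It fell under TMT (−3.60, SE 0.18, adjusted p = 4.6e-07), to a level among the dimmest 20% of genes, where the size of a fall is a lower limit, and 3.15-fold under TET (−1.66, SE 0.18). Irf8, a factor known to drive Naip genes, read 12.56, 12.41 and 12.51 in saline, 11.24, 10.99 and 11.19 under TMT and 12.49, 12.44 and 12.36 under TET. It fell 2.55-fold under TMT (−1.35, SE 0.10, adjusted p = 4.1e-06). TET gave −0.06 for Irf8 (SE 0.10, adjusted p = 0.61), and −0.39 with the mean over its probe sets, which passed (adjusted p = 0.0091). Irf1, which is known to raise Aim2 and Gbp genes, fell 2.08-fold under TMT and 4.18-fold under TET (−1.06 and −2.06, SE 0.12 each). The NF-kB subunit gene Rel fell 4.52-fold under TMT and 1.24-fold under TET. Ifnar1, encoding a chain of the interferon receptor, rose 1.29-fold under TMT and fell 3.29-fold under TET (−1.72, or −2.48 with the mean over its probe sets). Irf9, which joins STAT factors in the interferon response, fell 1.29-fold under TMT and rose 1.75-fold under TET. When probe sets that may bind several transcripts were left out, 6 of the 13 had no value, and 4 of the other 7 changed under each organotin.

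**Figure D4:**
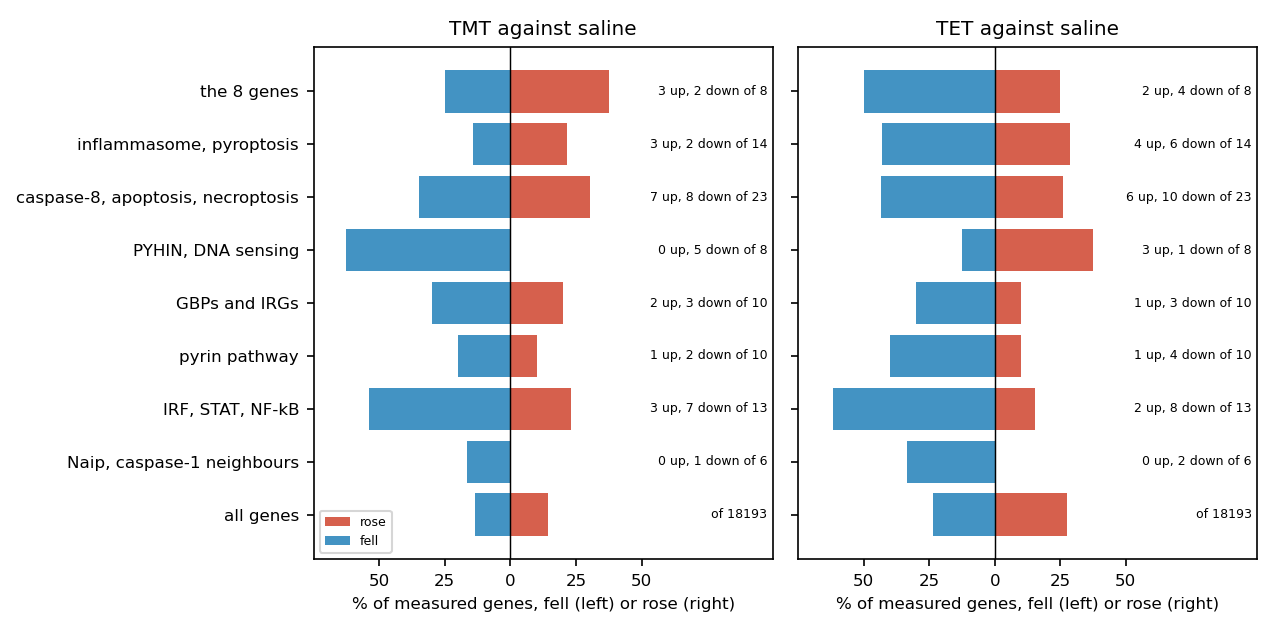
Percent of measured genes that rose (right) or fell (left) at an adjusted p under 0.05, for the 8 genes, for the 7 lists of related genes and for all genes, under TMT and TET, with the counts printed beside the bars. The DNA sensing list has 5 falls and 0 rises of 8 under TMT, and the list of interferon and NF-kB factors leans to falls under both.

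**Figure D5:**
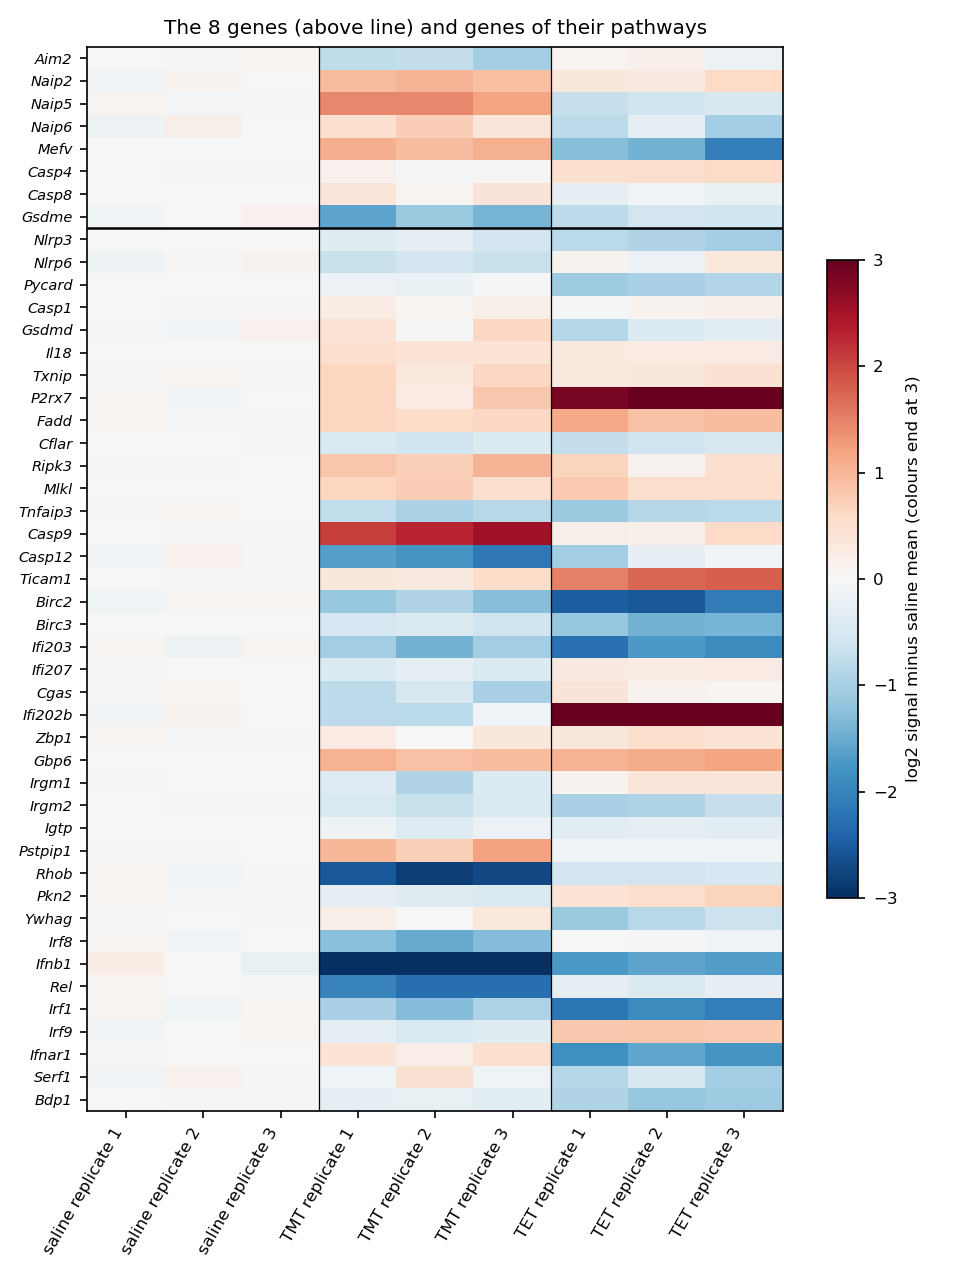
Log2 signal of each array minus the saline mean of that gene, for the 8 genes above the line and for the named genes of their pathways below it, with colours ending at 3 in either direction. Mefv and Naip5 are red in the TMT arrays and blue in the TET arrays, Casp9 is red in TMT arrays, and P2rx7 and Ifi202b are darkest in TET arrays.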

How the data were processed

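RMA and affy are the tools named, per the submitters' processing notes (versions: not given in the sources used here). As deposited, the data were 1 table of log2 signals for 45037 probe sets and 9 arrays. The base of the logarithm was inferred from the values, which ran from 2.05 to 14.8. No source says whether the arrays were run together. Values identical to all digits occurred in 602 to 952 probe sets between each TET array and each array of another group, and in 535 to 643 between TET arrays. Such values numbered 1494 to 1712 between saline arrays, 1269 to 1817 between TMT arrays and 1140 to 1593 between saline and TMT. Precision is limited by the number of arrays.

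Of the probe sets, 34945 named 1 gene in the platform annotation, 932 several and 9160 none, and only the first were used, with symbols updated through RefSeq (GRCm38.p6; 204 gene identifiers had no match there). Each of 18193 genes was read by the probe set with the highest mean. Group means were fitted in 1 linear model over the 9 arrays (limma 3.58.1, R 4.3.3), with 6 residual and 3.99 prior degrees of freedom and Benjamini-Hochberg adjustment over all genes. The fit was tested on simulated data. No set test was run.

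The 8 genes, the 7 lists of related genes (81 of 107 genes measured) and the cell markers were chosen with earlier results of these data known. Named list genes were up to 3 per list and comparison with saline with the smallest adjusted p and no overlap with saline, plus Nlrp3, Nlrc4, Pycard, Casp1, Gsdmd, Fadd, Cflar, Ripk3, Mlkl and Irf8 (1 further gene of this rule is not reported here). The 20 alternatives are described in the closing section.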

Additional observations from a re-analysis of the deposited data

How the results depend on the processing

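The alternatives were leaving out each array, a replicate block, repeated quantile normalization, centring on array medians, bright genes alone, the mean over probe sets, leaving out probe sets named x, s or a, testing all probe sets, trended robust moderation, array weights, the 6 arrays of a comparison alone and a required 1.5-fold change. Of 450 values of the 8 genes over these settings, the 1.5-fold requirement left aside, 430 kept their direction and their side of the threshold, 15 newly passed (Naip6 and Casp8 under TMT), 0 were lost and 5 reversed. Reversed were Aim2 under TET, not called in any setting (from −0.054 to 0.113 when 1 array was left out, below 0 without saline replicate 2, TET replicate 1 or TET replicate 2, and −0.068 centred on array medians), and Gsdme under TET with the mean over probe sets (0.40), where its other probe set rose. Casp1 under TET, not called, reversed to −0.012 centred on array medians. Leaving out probe sets named x, s or a took away the only probe sets of Naip2 and Naip5 (2 genes with no value), and 3 genes changed under TMT. With a 1.5-fold change required, 5 differed between TET and TMT and 4 changed under TET (0 rose).

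No label says whether replicate numbers pair the arrays. Deviations from group means correlated at −0.15 to 0.31 between arrays of the same number. Between arrays of different numbers they correlated at −0.30 to 0.26. With 3 arrays a group these ranges cannot decide whether the arrays were paired. With the replicate block 6 genes changed under TMT, 6 under TET and 8 between TET and TMT. The number of arrays limits what could pass, by each gene's own spread.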
